A study of Mus musculus with 4 samples.

Results

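Single cells that express Foxd1, Foxc2 and Twist1 together, a combination taken here as the mark of cranial head mesoderm, were examined in the mouse Mesp1 lineage at E8.0 and E8.25 (embryonic stages, in days). A cell was taken when it held at least 1 UMI (unique molecular identifier, 1 captured transcript molecule) of each of these genes and no UMI of Meox1, a gene of paraxial mesoderm and somites, or of Cdh5, an endothelial cadherin gene. Cells under 1000 detected genes or above 10% mitochondrial UMIs had been removed before. The rule took 1213 of 10531 retained cells of the early libraries, namely 811 of 7577 at E8.0 and 402 of 2954 at E8.25, out of 22625 retained cells in the 4 libraries of the series. The members were thus chosen by their UMIs of these 5 genes. They are called the Foxd1 Foxc2 Twist1 cells, or cells passing the rule in the plots. Since the rule reads these genes in the same cells, their levels are given as a description only.

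Every library was made from Swiss Webster embryos of the genotype Mesp1Cre;Rosa26-GFPflox/+, in which Cre recombinase from the Mesp1 gene of nascent mesoderm switches on a GFP reporter in a cell and in all its descendants. Embryos of 1 stage were pooled, and living (DAPI-negative) GFP-positive cells were sorted from the upper body (E8.0 and E8.25) or from the pharyngeal apparatus and heart (E9.5 and E10.5). With a single library per stage, differences between stages have no test, and every interval given for a level or share is a 95% interval for counting error only. Cells outside the Mesp1 lineage were left out by the sort, which also means that mesoderm in which Mesp1Cre was never active could not be seen.

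The head mesoderm lies beside the brain in front of the somites and, unlike the trunk paraxial mesoderm, does not segment. It gives rise to muscles of the eye, face and jaw, to vessels and to part of the skull. Foxc2 and Foxd1 encode forkhead factors and Twist1 a bHLH factor of mesenchyme, and loss of Twist1 in the mouse leaves the cranial neural tube open. Retinoic acid, made in trunk mesoderm by the enzyme encoded by Aldh1a2, favours Hox expression towards the tail, while the Cyp26 enzymes break it down in the head.

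The median depth was 22073 UMIs per Foxd1 Foxc2 Twist1 cell at E8.0 and 32761 at E8.25, close to that of the retained cells of each library (21663 and 35467), so the E8.25 library was the deeper one. Across libraries 41 cell barcodes occurred at both stages, and no barcode belonged to a Foxd1 Foxc2 Twist1 cell in both. Doublets, droplets with more than 1 cell, were kept and removed only as an alternative, which took 49 of these cells at E8.0 and 11 at E8.25. Haemoglobin made up a median 0.012% of UMIs per cell at E8.0 and 0.306% at E8.25, close to the median of all retained cells in each library.

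The rule rested on few molecules. Foxd1 was present as a single UMI in 34.2% of the selected cells at E8.0 and 23.9% at E8.25, Foxc2 in 26.5% and 25.1%, and Twist1 in 18.1% and 15.2%. Just inside the rule, the 455 and 198 cells whose lowest gene was at 1 UMI held Fst at 429 and 408 CPM (UMIs of a gene scaled to the same total in every class of cells, the usual unit of expression level), against 582 and 578 in the 356 and 204 cells with at least 2 UMIs of each gene. Just outside it, cells with Foxc2 at 0 but the other genes present held Fst at 205 and 166, and cells kept out by exactly 1 Meox1 UMI held 487 and 431. Fst stood at 181 and 150 with only Twist1 at 0, and at 152 and 128 with only Foxd1 at 0. Cells without 1 of the 3 genes were thus well below those inside in Fst, and cells with 1 Meox1 UMI were close to those inside.

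Fst, which encodes follistatin, a secreted protein that binds activins and some BMPs, is the listed marker of these cells that the rule did not read (chr13:114452262-114458989 on GRCm38). Its level was 502 CPM at E8.0 and 494 at E8.25, against 147 and 181 in all other retained cells and 5.20 and 17.2 in red cells, which serve as the background of free RNA. In cells thinned to 10000 UMIs each, Fst was found in 74.9% and 76.6% of the Foxd1 Foxc2 Twist1 cells and in 1.95% and 15.5% of red cells. Unthinned shares were 82.2% and 87.8% against 15.4% and 49.5%, and the red cells were the deeper ones, with medians of 34973 and 52639 UMIs per cell. Fst was thus well above background at both stages. It was listed as a marker with these data known, so it is no independent support for the label, and it also marked the Meox1 Tcf15 cells described below, at 416 and 337 CPM.

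Marker lists of other cell types were compared with all other retained cells. The neural crest list summed to 19.3 and 30.5 CPM over 8 genes against 20.3 and 50.4, with Foxd3, Tfap2b and Erbb3 at 0 UMIs at E8.0. Cardiomyocyte markers summed to 200 and 74.9 against 996 and 411 in all other cells, and cardiac progenitor genes to 216 and 129 against 634 and 311. Somite and presomitic genes, with Meox1 and Tcf15 outside the list, summed to 44.0 and 43.8 against 46.5 and 45.3, with Msgn1 at 0 in both libraries. Tcf15, a paraxial gene that the rule did not read, was at 64.6 and 35.3 CPM in cells whose lowest rule gene was at 1 UMI. It was at 69.5 and 58.8 with at least 2 UMIs of each gene, and at 38.9 and 19.3 with only Foxd1 at 0. Epithelial and neural genes summed to 74.0 and 78.1, of which Krt18 alone gave 65.7 and 69.8, against 266 and 222. Endothelial genes summed to 117 and 135 against 315 and 196. Blood markers were the most abundant list at E8.25, with 225 and 4908 against 1743 and 18584, and their part in the results was not tested.

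A minority of the selected cells went against the cranial label. The caudal markers (the Cdx genes, T, Tbx4 and Pitx1) together with Hox genes of groups 4 to 9 were concentrated in 68 of 811 cells at E8.0 (8.38%, 6.57 to 10.51%) and 27 of 402 at E8.25 (6.72%, 4.47 to 9.62%), each with at least 5 such UMIs. These cells held 80.04% and 82.3% of all UMIs of these genes. At E8.0 the same 68 cells held 71.9% of the Hand1 UMIs, 75.9% of those of Phlda2, a growth-restricting imprinted gene of extraembryonic tissue, and 76.8% of Hoxa10. They also held 76.5% of the Tbx4 UMIs, a share partly set by the choice, which read Tbx4. Their Fst stood at 144 and 65.3 CPM, their Ebf1 at 51.1 and 34.3, and their Otx2, a gene of the anterior head, at 8.87 and 0.817. Cells of this kind were more frequent among cells with the same gate but no Foxd1 (34.7% and 19.7%). The caudal and posterior Hox cells are named by their genes only, and the number of genes called is given with and without them in each comparison, an alternative chosen after seeing the data.

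A second minority carried Etv2, the factor that starts the blood and endothelial programme. At least 5 Etv2 UMIs were found in 42 of 811 cells (5.18%, 3.76 to 6.94%) and 19 of 402 (4.73%, 2.87 to 7.28%), and these held 82.0% and 83.9% of all Etv2 UMIs. Kdr, the receptor of VEGF on endothelial precursors, reached 222 and 258 CPM there, against 43.9 and 43.0 in all Foxd1 Foxc2 Twist1 cells. Fst remained above the background at 290 and 224, and Ebf1 was at 133 and 179.

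The share of cells passing the rule was 10.7% (10.0 to 11.4%) at E8.0 and 13.6% (12.4 to 14.9%) at E8.25, a ratio of 1.27 (1.12 to 1.43). After each cell was thinned to 10000 UMIs, which 6625 and 2929 cells allowed, the shares were 5.63% (5.09 to 6.21%) and 5.74% (4.92 to 6.64%), a ratio of 1.02 (0.844 to 1.23). At equal depth the shares therefore did not differ beyond counting error. The Meox1 condition took out more cells than the Cdh5 condition, because 48.5% of cells with all 3 genes at E8.0 and 62.0% at E8.25 also had Meox1, whereas 2.35% and 4.56% had Cdh5. Without the Meox1 and Cdh5 conditions the shares were 21.3% and 37.1%, a ratio of 1.74 (1.61 to 1.88).

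**Figure D1:**
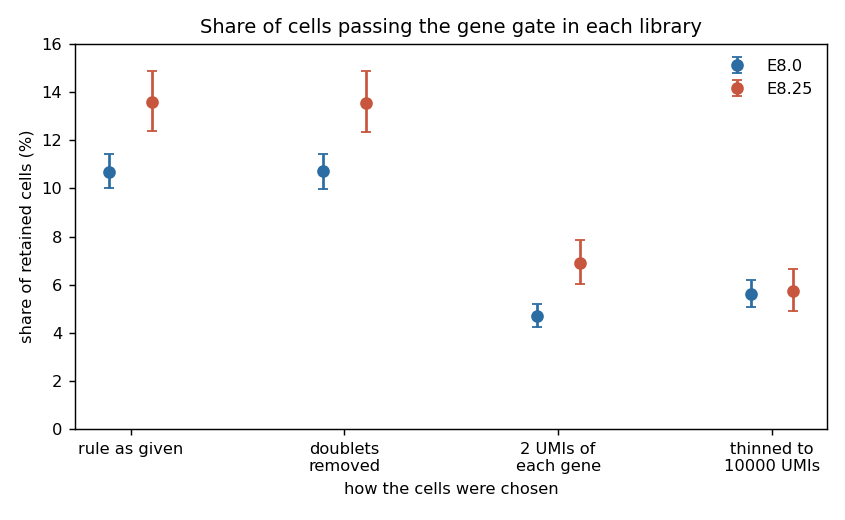
Share of retained cells (percent) passing the gene gate at E8.0 (blue) and E8.25 (red) under 4 ways of choosing them, with exact 95% binomial intervals for counting error. The points of the stages stand apart under the rule as given (10.7% and 13.6%) and lie on the same level after thinning to 10000 UMIs (5.63% and 5.74%).

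The Foxd1 Foxc2 Twist1 cells were compared with 3 classes of the same libraries. The Meox1 Tcf15 cells, with both paraxial genes and no Cdh5, numbered 1408 and 979. The Isl1 Nkx2-5 cells, a gate for heart progenitors without Foxd1, Meox1 and Cdh5, numbered 397 and 74. The Foxd1-zero neighbours, with Foxc2 and Twist1 but without Foxd1, Meox1 and Cdh5, numbered 727 and 203. A cell that met both of these last gates was counted as a neighbour only, so no Isl1 Nkx2-5 cell held both Foxc2 and Twist1. UMIs were summed per library and class, and 12986 genes were tested with edgeR, using its quasi-likelihood test and the Benjamini-Hochberg adjustment, with the library as a block. In such sums, fewer expressing cells and less RNA per cell cannot be told apart. A gene is called where the adjusted p is under 0.05, and its log2 difference is given with the standard error (SE) of the fit. Levels are CPM of the class at E8.0 and then at E8.25. All classes were fitted together and share the same estimate of the spread. The libraries are different stages, so a p-value sets a difference against how far the classes, also those outside the comparison, differed unlike in these 2 libraries. Genes that go together with the gate genes from cell to cell are partly set by the gates.

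Fst, Lum and Tbx1 were higher in these cells than in the classes compared, in each library. Fst was highest in the Foxd1 Foxc2 Twist1 cells and next in the Meox1 Tcf15 cells (416 and 337), with the neighbours at 152 and 128 and the Isl1 Nkx2-5 cells at 30.8 and 29.2. Lum, which encodes the matrix proteoglycan lumican, was at 62.2 and 119, against 9.44 and 59.7, 12.03 and 34.6, and 2.18 and 8.24 in the same order of classes. Tbx1, a T-box gene of the pharyngeal region, stood at 81.2 and 106 and was at 47.4 and 60.8, 54.4 and 57.5, and 40.1 and 72.9 in the others. In all 3 genes the lower of the 2 values of the Foxd1 Foxc2 Twist1 cells was above both values of every other class, for Lum by little (62.2 against 59.7). The share of all tested genes with such a gap was not counted. The call of Tbx1 against the neighbours was lost without the caudal or the Etv2-rich cells, as given below.

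**Figure D2:**
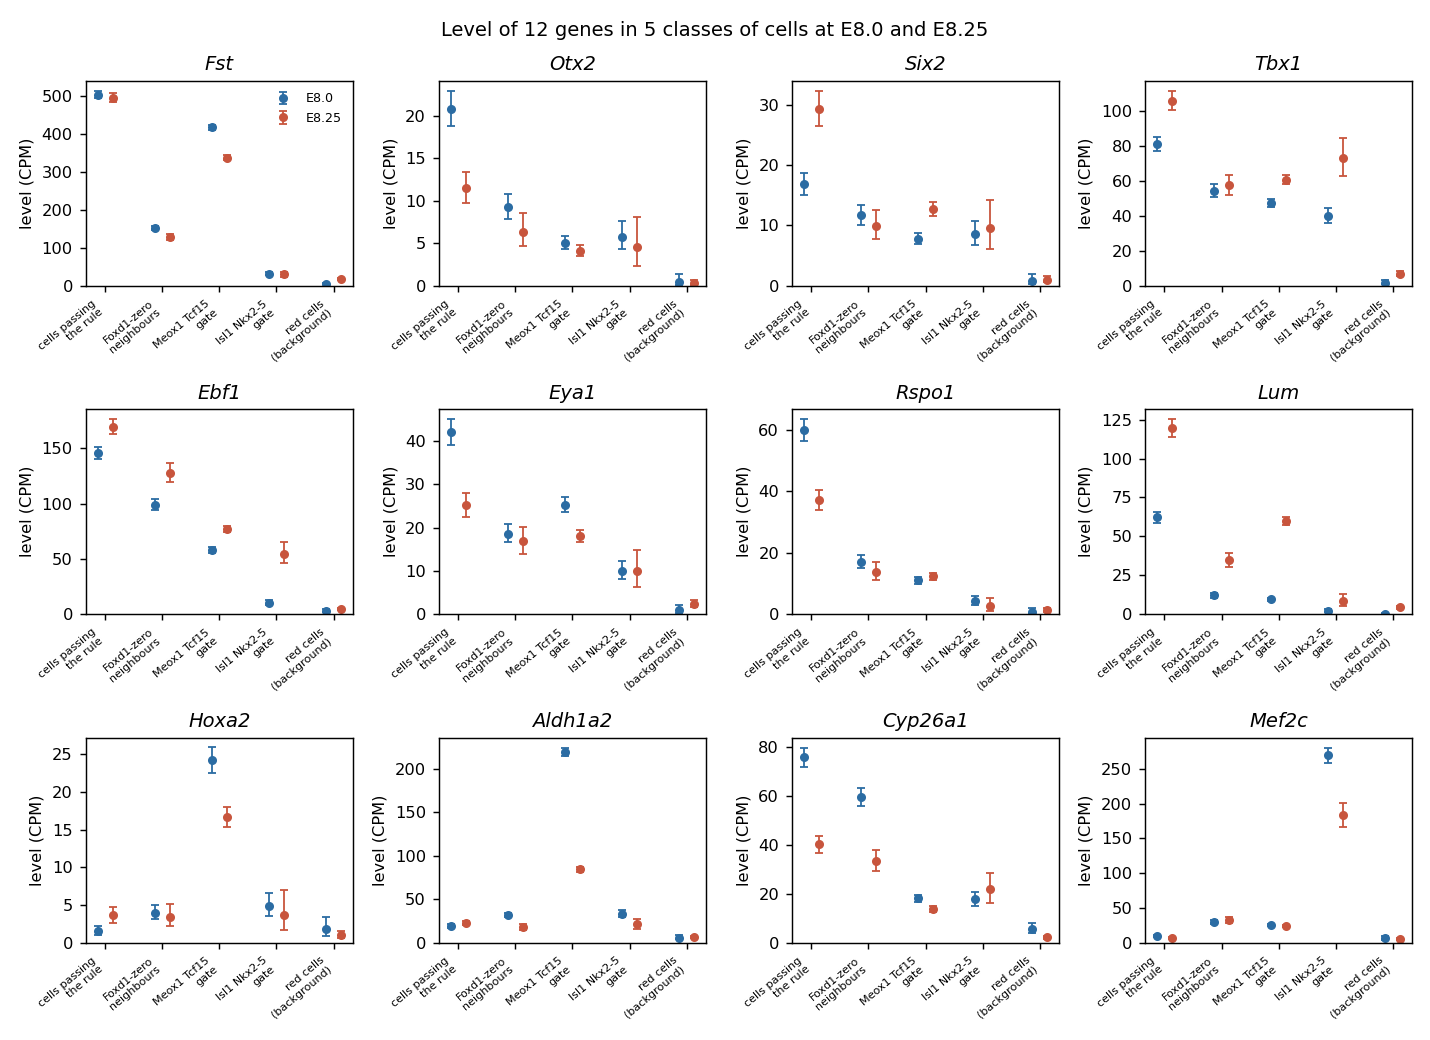
Level of 12 genes (vertical axis, CPM, each panel with its own scale from 0) in 5 classes of cells at E8.0 (blue) and E8.25 (red), with exact 95% Poisson intervals for counting error. Fst, Otx2, Rspo1 and Cyp26a1 are highest in the cells passing the rule in both libraries, Hoxa2 and Aldh1a2 in the Meox1 Tcf15 gate and Mef2c in the Isl1 Nkx2-5 gate, with red cells low throughout and at about the level of the cells passing the rule in Mef2c and, at E8.0, in Hoxa2. Cyp26a1 and Aldh1a2 were not called between the cells passing the rule and the Foxd1-zero neighbours.

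Against the Meox1 Tcf15 cells, 496 genes were higher (3.82% of those tested) and 425 lower (3.27%). The lower genes included every anterior Hox gene of the list, the retinoic acid synthesis enzyme gene Aldh1a2 and 6 of 11 tested somite genes. The higher genes included Cyp26a1, Cyp26c1, Otx2, Ebf genes, matrix genes and nearly the whole glycolysis list. The median log2 difference over all genes tested was -0.01. Without the caudal cells 588 genes were higher and 507 lower. With cells holding a Tcf15 UMI taken out of the Foxd1 Foxc2 Twist1 cells alone, 369 were higher and 327 lower. Without the library block 4 genes were called, all lower, and 1933 when only these 2 classes were fitted.

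The anterior Hox list, with genes of groups 1 to 3 that mark positions from the hindbrain backwards, was lower in 7 of 7 tested genes (median -2.04). Hoxa2 was at 1.57 and 3.60 CPM in the Foxd1 Foxc2 Twist1 cells and 24.2 and 16.6 in the Meox1 Tcf15 cells, lower by a log2 value of -3.07 ± 0.29 (SE, adjusted p = 0.00051). Hoxb2 was at 12.01 and 14.0 against 54.4 and 50.2 (-2.04 ± 0.10, adjusted p = 1.3e-05). The values of the classes did not overlap for either gene, and the share of all tested genes with such a gap was not counted. Meis2, a Hox cofactor, was at 63.5 and 49.7 against 305 and 162 (-2.03 ± 0.13). Transcripts antisense to or beside Hox genes were also lower (Hotairm1 -2.77, Halr1 -4.25, Hoxb3os -2.65). Strand use in the counting is not given in the sources used here, so these and their overlapping Hox genes may share reads. Of the Hox list of groups 4 to 9, 3 of 14 were lower and none was higher.

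Of the genes of retinoic acid signalling 3 of 13 were higher and 7 lower. Aldh1a2, the synthesis enzyme, was at 19.2 and 22.2 CPM against 220 and 84.2 (-2.79 ± 0.27, adjusted p = 0.00054). Rdh10, which makes the precursor retinaldehyde, was lower by -1.44 ± 0.15 and Dhrs3, which turns it back, by -2.50 ± 0.33. Of the genes of the breakdown enzymes, Cyp26a1 was higher, at 75.9 and 40.2 against 18.2 and 13.8 (1.80 ± 0.17, adjusted p = 0.00049). Cyp26c1 was also higher, at 6.66 and 7.48 against 1.59 and 3.76 (1.47 ± 0.25), and the other Cyp26 gene of the list was not called. Of the receptors, Rarg was higher and Rara and Rarb were lower.

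Of the somite genes 6 of 11 tested were lower and none was higher (median -1.91), which the Meox1 and Tcf15 gates favour. Meox2 was at 0.420 and 0.734 against 9.999 and 10.54 (-4.21 ± 0.25), Pax3 was lower by -1.91 ± 0.20 and Dll1, a Notch ligand of segmenting mesoderm, by -2.80 ± 0.37. Arg1, the arginase gene, was among the 12 largest decreases, at 37.7 and 66.4 against 283 and 318 (-2.61 ± 0.13).

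Among the head mesoderm factors 6 of 18 were higher and 4 lower (median 0.22). Otx2 was at 20.8 and 11.4 CPM against 5.04 and 4.08 (1.76 ± 0.16, adjusted p = 0.00034). Six2 was at 16.8 and 29.3 against 7.79 and 12.6 (1.13 ± 0.19, adjusted p = 0.0070). The lower genes included Dmrt2 (-2.87), Tshz1 (-1.86) and Zfhx3. Prrx1 (0.46, adjusted p = 0.26), Alx1 (0.51, adjusted p = 0.23) and Foxc1 (-0.27, adjusted p = 0.35) did not pass the test. Fst was higher by 0.39 ± 0.06 (adjusted p = 0.0054), and this call was lost when cells with a Tcf15 UMI were removed (0.18, adjusted p = 0.42), as was that of Six2 (0.79, adjusted p = 0.071). Here and below, Tcf15-positive cells were removed from the Foxd1 Foxc2 Twist1 cells only, and the classes compared kept theirs.

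The branchiomeric muscle list held 4 higher genes of 8 and 1 lower. Tbx1 was at 81.2 and 106 CPM against 47.4 and 60.8 (0.76 ± 0.11, adjusted p = 0.0038), and Ebf2 at 48.4 and 53.0 against 14.3 and 23.1 (1.45 ± 0.15). Ebf1 was at 146 and 170 against 58.2 and 77.0 (1.21 ± 0.25, adjusted p = 0.020), and DESeq2 did not call it (adjusted p = 0.46). Myf5, the earliest myogenic bHLH gene, was at 0.472 and 0.220 against 3.097 and 2.07 (-2.89 ± 0.39).

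Regulators and targets of Wnt signalling were among the largest increases. Rspo1, a secreted enhancer of Wnt signalling, was at 59.8 and 37.1 CPM against 10.97 and 12.3 (2.001 ± 0.17, adjusted p = 0.00026), Dkk1, a secreted inhibitor, at 48.7 and 26.3 against 12.6 and 8.93 (1.75 ± 0.11), and Sp5, a direct target, at 69.3 and 57.6 against 19.5 and 22.6 (1.59 ± 0.18). Axin2, another target, was higher by 0.70 ± 0.10, a call lost without Tcf15-positive cells (0.23, adjusted p = 0.42). Over the Wnt list 5 of 19 were higher and 4 lower, the latter being Wnt2, Wnt5a, Sfrp5 and Rspo3. BMP genes showed 3 higher and 1 lower of 18, and FGF genes 2 higher of 14, Fgf8 among them. Hedgehog genes showed 3 higher and 1 lower of 11 and Notch genes 2 higher and 1 lower of 10. Of the PDGF list Pdgfra (-0.78 ± 0.14) and Pdgfc were lower among 4 tested.

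Mesenchyme and matrix genes were higher in 12 of 26 tested and lower in none (median 0.41). Lum led with 1.71 ± 0.29 (adjusted p = 0.0083). Its ratio to the Meox1 Tcf15 cells was larger at E8.0 (log2 2.72) than at E8.25 (1.00). Col2a1, the main cartilage collagen, was at 45.7 and 90.4 CPM against 24.3 and 44.7 (0.94 ± 0.08), and the proteoglycan genes Vcan and Dcn were higher by 0.73 ± 0.09 and 1.34 ± 0.18, the latter without a call when Tcf15-positive cells were removed (adjusted p = 0.062). Sox9, the regulator of cartilage formation, was higher by 0.92 ± 0.23 with an adjusted p of 0.043, and its adjusted p lay between 0.051 and 0.33 without Tcf15-positive, caudal or Etv2-rich cells and in DESeq2. The neurofilament gene Nefm, known from neurons, had the highest log2 difference of all named genes (18.4 and 23.8 against 3.69 and 5.91, 2.13 ± 0.13).

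**Figure D3:**
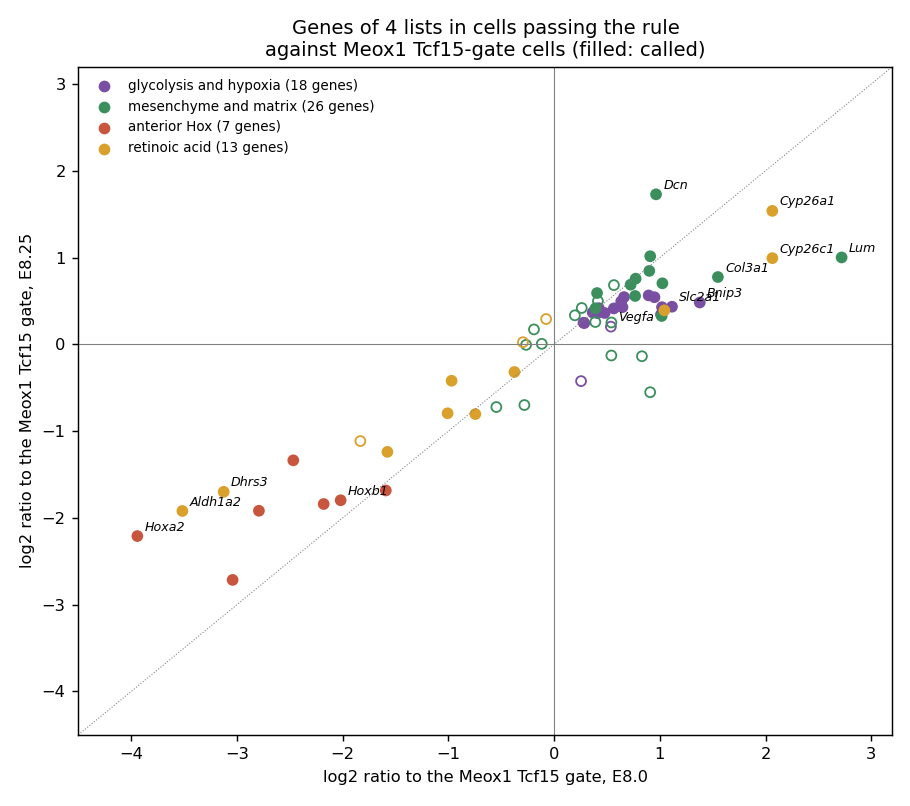
Log2 ratio of the level in cells passing the rule to that in Meox1 Tcf15 cells at E8.0 (horizontal axis) and E8.25 (vertical axis) for the tested genes of 4 lists, filled where called and open where not. Glycolysis genes (16 of 18 called) lie close together above 0 in both libraries and anterior Hox genes (7 of 7) far below 0, while retinoic acid genes fall on both sides.

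Glycolysis and hypoxia response genes were higher in 16 of 18 and lower in none (median 0.49), with small and even differences. Ldha, lactate dehydrogenase A, was at 3633 and 4717 CPM against 2609 and 3673 (0.39 ± 0.04, adjusted p = 0.00055), Pgk1 was higher by 0.57 ± 0.05 and Pkm by 0.34 ± 0.03. Bnip3, a mitophagy gene, was higher by 0.88 ± 0.17 and the glucose transporter gene Slc2a1 by 0.79 ± 0.19 (adjusted p = 0.043, and 0.26 in DESeq2). Vegfa (0.37, adjusted p = 0.33) and Ndrg1 (-0.09, adjusted p = 0.93) were not called. The S phase list had no call among 16 genes (median -0.01) and the G2/M list 1, Ccnb2, which was lower, so these classes were not told apart by their cycle genes.

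As the glycolysis genes moved together, their promoters were searched for ACGTG on either strand, the core of the element bound by hypoxia-inducible factors. The search ran over 250 bases before to 50 after each RefSeq start on GRCm38.p6. A match was found for 11 of the 16 list genes with a window (68.8%) and for 21.8% of 27025 genes overall. By windows the shares were 50% of 24 and 19.6% of 32851. The list was drawn up from glycolysis and hypoxia response genes. A share above that of all genes was therefore likely beforehand and is no result about these cells. The letters overlap the E-box CACGTG, which holds ACGTG on both strands, so a match can be either. The following sites, each with 12 bases on either side and the matched letters (ACGTG or its reverse complement CACGT) in capitals, belong to 4 genes described above and are printed 5′ to 3′ on the strand of the gene.
Slc2a1, chr4:119108697-119108725, plus strand: gtcccgccccggACGTGctccccaggccc
Pgk1, chrX:106186938-106186966, plus strand: gcgtcgtgcaggACGTGacaaatggaagt
Ldha, chr7:46845744-46845772, plus strand: cggcccagcctaCACGTgggttcccgcac
Bnip3, chr7:138909598-138909626, minus strand: gcgcacgcgccgCACGTgccacacgctcc
The Ldha and Bnip3 sites are E-boxes by these letters, and the Pgk1 and Slc2a1 sites are not. Vegfa, which was not called, also had a match. These are matches of letters, and binding was not measured.

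Against the Isl1 Nkx2-5 cells, 911 genes were higher (7.02%) and 1175 lower (9.05%). The Foxd1 Foxc2 Twist1 cells held far less of the cardiac programme and more of the head mesoderm, Eya, matrix and hedgehog genes, with less of the BMP and FGF genes. The Isl1 and Nkx2-5 gates favour the cardiac part of this difference. Cells with both Foxc2 and Twist1 were left out of the Isl1 Nkx2-5 class, which can favour the head mesoderm and matrix part. The size of this effect was not tested. Without the library block 396 genes were called (32.3% of them higher, against 43.7% with it). Without the caudal cells 1046 genes were higher and 1273 lower. The E8.25 library gave only 74 cells to the Isl1 Nkx2-5 gate.

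All 14 cardiac progenitor genes were lower (median -2.54) and so were all 6 tested cardiomyocyte genes (median -4.51). Mef2c, a MADS-box factor of the second heart field, was at 9.76 and 6.97 CPM against 269 and 183 (-4.74 ± 0.17, adjusted p = 5.2e-07). Gata5 was lower by -4.02 ± 0.15, Tbx5 by -3.68 ± 0.24, and Tnnt2, cardiac troponin T, was at 23.0 and 6.53 against 354.5 and 359 (-4.53 ± 0.34). Other sarcomere or heart genes among the 12 lowest were Mylk3 (-5.29), Nebl (-4.87) and Ankrd1 (-4.74).

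Many signalling genes were lower in the Foxd1 Foxc2 Twist1 cells than in the Isl1 Nkx2-5 cells. Fgf8, lower here, was called higher than in the Meox1 Tcf15 cells, as given above. Of 18 BMP genes 11 were lower, among them the ligands Bmp4 (9.13 and 14.1 against 60.2 and 113, -2.83 ± 0.15) and Bmp2 (-2.56 ± 0.14) and the target Msx2 (-1.86 ± 0.21). The BMP antagonist genes Fst (4.09 ± 0.08, adjusted p = 2.7e-08) and Grem1 (1.997 ± 0.24) were the only list members called higher. Nog, another antagonist, and Bmper, which binds BMPs, were among the lower genes. Nbl1, another secreted BMP antagonist, had the highest log2 difference of all named genes in this comparison, at 34.0 and 40.4 against 0.804 and 3.71 (4.62 ± 0.29). Of 14 FGF genes 7 were lower and none was higher, with Fgf8 at 51.9 and 32.7 against 134.5 and 107 (-1.49 ± 0.09), Fgf10 lower by -2.01 ± 0.22 and the target Etv5 by -1.33 ± 0.15. The Wnt list was split, with 4 of 19 higher and 5 lower, among them the ligand Wnt2 (-3.73 ± 0.17) and the inhibitor Sfrp5 (-5.14 ± 0.38). Tdgf1, the Nodal coreceptor, was lower by -4.81 ± 0.40.

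Head mesoderm factors were higher in 10 of 18 and lower in 1 (median 1.07), and the list of Eya genes and their partner factors in 4 of 6, with Dach1 lower. Eya1, a cofactor of muscle precursors, was at 42.0 and 25.1 CPM against 9.995 and 9.88 (1.86 ± 0.19). Ebf1 was at 146 and 170 against 10.3 and 54.8 (2.77 ± 0.35, adjusted p = 0.00076), a smaller ratio at E8.25 (log2 1.63) than at E8.0 (3.82). Of the branchiomeric list Tbx1, Ebf1, Ebf2 and Ebf3 were higher and Tcf21, a bHLH gene of jaw muscle and of heart, was lower (-1.31 ± 0.14).

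Matrix and mesenchyme genes were higher in 11 of 26 and lower in 4. Lum (4.38 ± 0.51), Dcn (3.81 ± 0.35) and Bgn (3.11 ± 0.28) encode small leucine-rich proteoglycans, and Cdh11, a cadherin of mesenchyme, was higher by 1.48 ± 0.14. Vim, in contrast, was lower by -0.93 ± 0.06 and the keratin gene Krt18 by -1.76 ± 0.12. Sox9 was higher by 1.94 ± 0.30. Of the hedgehog list 5 of 11 were higher and none lower. Glycolysis genes were higher in 12 of 18 (median 0.27), with Ldha at 0.24 ± 0.04, and the glucose transporter gene Slc2a3 was lower (40.5 and 73.5 against 66.6 and 208, -1.09 ± 0.15). Of the retinoic acid list Cyp26a1, Cyp26c1 and Rarg were higher again, and Aldh1a2 was not called.

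The Foxd1-zero neighbours differ from the Foxd1 Foxc2 Twist1 cells by 1 gene in their gates. In this comparison 424 genes were higher (3.27%) and 606 lower (4.67%). Higher genes again included Fst, Lum, Nbl1 and Eya genes, and lower genes included BMP ligands, endothelial, cardiac and posterior Hox genes. Of the 13 genes of retinoic acid signalling none was called, Cyp26a1, Cyp26c1 and Aldh1a2 included. Since the caudal and posterior Hox cells made up 34.7% and 19.7% of the neighbours, the calls were repeated without them, which left 204 higher and 363 lower, 495 of them among the original calls. Without cells of at least 5 Etv2 UMIs there were 259 higher and 408 lower, and without the library block 3 and 7.

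Fst was at 502 and 494 CPM against 152 and 128 (1.85 ± 0.07, adjusted p = 1.8e-06). Lum was higher by 2.12 ± 0.33, Nbl1 by 2.25 ± 0.17, Rspo1 by 1.66 ± 0.19 and Foxd2, a close relative of Foxd1, by 1.83 ± 0.17. Lmo4, a LIM-only cofactor, was at 303 and 375 against 102 and 138 (1.52 ± 0.08, adjusted p = 1.2e-05). Eya2 was at 13.2 and 9.32 against 3.01 and 5.48 (1.57 ± 0.27), and of the list of Eya genes and their partners 4 of 6 were higher, as many as without the caudal cells. Ptch1, receptor and target of hedgehog, was at 67.4 and 44.8 against 32.7 and 17.0 (1.16 ± 0.13), within a list that had 4 higher of 11, and 3 without the caudal cells.

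Several calls were lost when groups of cells were removed. Tbx1 was at 81.2 and 106 against 54.4 and 57.5 (0.72 ± 0.12, adjusted p = 0.0068), but was not called without the caudal cells (0.29, adjusted p = 0.32). It was not called without Etv2-rich cells (0.46, adjusted p = 0.12) either. Nor was it called with Tcf15-positive cells taken out of the Foxd1 Foxc2 Twist1 cells alone (0.50, adjusted p = 0.084). Without the caudal cells the calls were also lost for Otx2 (1.06 to 0.61, adjusted p = 0.074), Ebf2 (1.00 to 0.56, adjusted p = 0.098) and Gli1 (0.87 to 0.84, adjusted p = 0.069). Gli1 was not called without the Etv2-rich cells (adjusted p = 0.12) or by DESeq2 (adjusted p = 0.052) either. Ebf1 was not called in either case (0.50, adjusted p = 0.30 with all cells). Head mesoderm factors went from 6 higher and 1 lower of 18 to 4 and 0 of 17, and glycolysis genes from 9 higher and 1 lower to 4 and 0 of 18.

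Many lower genes were still called without the caudal cells. Posterior Hox genes were lower in 9 of 14 with all cells and in none of 8 tested without the caudal cells, with Hoxb6 going from -2.35 to -0.22 and Pitx1 from -2.54 to -0.57. As these genes define the removed cells, their loss is set by the removal. Cardiac progenitor genes were lower in 11 of 14, and in 12 without the caudal cells, with Gata6 at 13.7 and 9.39 against 51.1 and 38.3 (-1.93 ± 0.10). Bmp2 (5.14 and 5.50 against 38.2 and 35.7, -2.79 ± 0.12), Bmp4 (-2.24 ± 0.15), Hand1 (-2.59 ± 0.20), Wnt2 (-2.40 ± 0.17), Rspo3 (-2.51 ± 0.14) and Pmp22 (-2.35 ± 0.15) were still called without them. Endothelial genes were lower in 7 of 7, in 4 without the caudal cells and in 2 without the Etv2-rich cells. Etv2 itself was at 58.6 and 60.0 against 321 and 148 (-1.92 ± 0.20), and Kdr went from -1.04 to -0.24 (adjusted p = 0.63) without the Etv2-rich cells.

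Across the comparisons, which share the Foxd1 Foxc2 Twist1 cells and are therefore not independent, 165 genes were called higher in all 3, which is 33.3% of the higher calls against the Meox1 Tcf15 cells, 18.1% against the Isl1 Nkx2-5 cells and 38.9% against the neighbours. Of these, 47 were higher at least 2-fold each time, among them Lum, Dcn, Bgn, Col3a1, Rspo1, Sp5, Nefl, Nefm, Otx2, Zic1, Zic5 and Pax9 (named after their values were seen). Lower in all 3 were 84 genes, 29 of them at least 2-fold, including Hoxb2, Hoxb3, Gata6, Mef2c, Wnt2, Rspo3, Sfrp5 and Tgfb2. Otx2 was not called against the neighbours without the caudal cells, as given above.

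The cells also varied among themselves. After thinning to 10000 UMIs, which 770 cells at E8.0 and all 402 at E8.25 allowed, the Fano factor (variance over mean of UMIs per cell) had a median of 1.02 over 2434 genes at 0.5 UMIs per cell or more. The 15 genes with the highest values in the lower of the libraries held genes of the minorities described above (Etv2 and Phlda2), imprinted genes (Mest, Nnat, Meg3 and Cdkn1c), genes of the cytoskeleton and keratins (Actb, Krt8), cycle genes (Hist1h2ap, Ube2c) and Fst. Fst had a Fano factor of 5.50 and 5.61, Etv2 of 9.57 and 12.2, and Phlda2 of 23.0 and 6.53. Mest was at 3.86 and 5.08 and Nnat at 5.90 and 4.75.

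Genes correlated weakly to moderately from cell to cell. The correlations are descriptions over cells of 1 library at equal depth, with the gates in common. Fst went with Tbx1 (Spearman rho 0.33 over 770 cells and 0.42 over 402), Ebf1 (0.29 and 0.37), Six2 (0.23 and 0.33) and Nnat (0.22 and 0.40). It went against Mest (-0.40 and -0.45) and, less so, Alx1, a homeobox gene of mesenchyme around the eye (-0.19 and -0.17). Etv2 went with Kdr (0.31 and 0.30). The signs were the same in both libraries for each of these pairs.

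**Figure D4:**
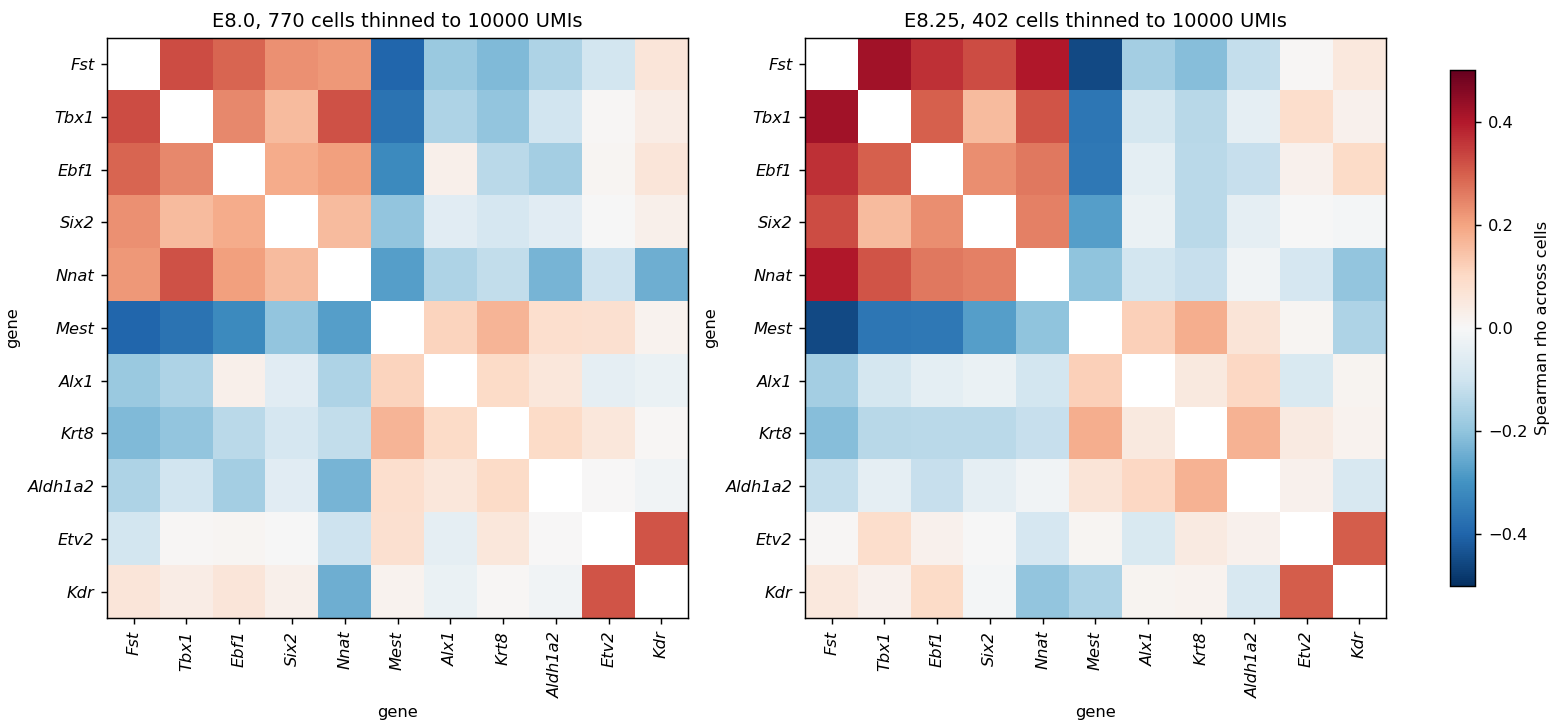
Spearman rho (colour, from -0.5 in blue to 0.5 in red) between 11 genes across cells passing the rule, thinned to 10000 UMIs, at E8.0 (left, 770 cells) and E8.25 (right, 402 cells), with the diagonal left blank. A block of Fst, Tbx1, Ebf1, Six2 and Nnat is positive in both panels and goes against Mest, while Etv2 and Kdr form a pair.

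Cells in which Tbx1 was detected after thinning, 351 of 770 at E8.0 and 206 of 402 at E8.25, were set beside those without it. Fst stood at 661 CPM against 368 at E8.0 (log2 ratio 0.84, 0.75 to 0.94) and at 740 against 334 at E8.25 (1.15, 1.01 to 1.28). Ebf1 (0.74 and 0.84), Ebf2 (0.60 and 0.54), Six2 (1.27 and 0.96) and Prrx2 (0.59 and 0.53) were also higher with Tbx1. Their intervals excluded 0 in both libraries, but these cover counting error only and leave out the spread between cells. That spread was larger, with Fano factors of 5.50 and 5.61 for Fst and 2.84 and 3.80 for Crabp1 at E8.0 and E8.25. Crabp1, a retinoic acid binding protein gene, was lower with Tbx1, at 272 against 408 (-0.58, -0.70 to -0.47) and 178 against 330 (-0.89, -1.08 to -0.70). Otx2 did not differ beyond counting error (-0.19, -0.65 to 0.25, and -0.02, -0.86 to 0.84), and the interval of Alx1 excluded 0 at E8.0 (-1.15, -1.56 to -0.76) but not at E8.25 (-0.50, -1.13 to 0.11). As a description with no test, cells with detected Tbx1 held more Fst, Ebf1 and Six2 and less Crabp1 in both libraries.

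Between E8.0 and E8.25, 193 of 10830 genes with at least 50 UMIs were at least 2-fold higher at the later stage (1.78%) and 266 at least 2-fold lower (2.46%), with a median log2 ratio of 0.01. With 1 library each, stage and library cannot be told apart. Of the genes higher in these cells, Fst was at 502 and 494 CPM (log2 ratio -0.02, -0.07 to 0.02), Ebf1 at 146 and 170 (0.22, 0.14 to 0.30) and Tbx1 at 81.2 and 106 (0.39, 0.28 to 0.49). Six2 went from 16.8 to 29.3 (0.80), Otx2 from 20.8 to 11.4 (-0.86) and Prrx1 from 73.0 to 48.1 (-0.60). Of 16 head mesoderm factors none was 2-fold higher at E8.25 and 1 was 2-fold lower, and no gene of the branchiomeric and Eya lists was past 2-fold in either direction.

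Of the matrix list 4 of 25 genes were at least 2-fold higher at E8.25 and 1 lower, and of the skeletogenic list 1 of 9 each. Col3a1 went from 9.49 to 40.2 CPM (log2 ratio 2.08, 1.84 to 2.33), Col9a1 from 15.8 to 40.1 (1.34), Dcn from 9.49 to 21.1 (1.15) and Sox5, a partner of Sox9 in cartilage, from 3.15 to 6.82 (1.12). Lum (0.94) and Col2a1 (0.98) were just under 2-fold. Col3a1 was higher at E8.25 in the Meox1 Tcf15 cells too (2.86), as was Sox5 (1.09), whereas Dcn was at 0.39 there. Aldh1a3, a retinoic acid synthesis enzyme, went from 0.577 to 11.96 (4.37) and likewise in the Meox1 Tcf15 cells (4.05) and the neighbours (4.05). Blood markers were at least 2-fold higher in 6 of 6 genes, with Hba-x at 86.2 and 1766, and Hba-x was higher in the Meox1 Tcf15 cells (4.20) and the Isl1 Nkx2-5 cells (2.27) too, with red cells 2.06% of retained cells at E8.0 and 11.2% at E8.25. The part of free RNA in these blood values was not tested.

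Lower at E8.25 were the hyaluronan synthase gene Has2 (32.4 to 9.47 CPM, -1.77, -2.06 to -1.50), Vegfa (21.6 to 5.06, -2.09), Frzb, a secreted Wnt inhibitor (40.7 to 20.2, -1.01), and Foxf2 (15.8 to 6.60, -1.26). Cardiomyocyte genes were past 2-fold lower in 5 of 6, with Tnnt2 at 23.0 and 6.53 (-1.82) and Myl7 at 91.5 and 31.5 (-1.54), while in the Isl1 Nkx2-5 cells Tnnt2 (0.02) and Myl7 (0.11) were level. The cardiomyocyte list summed to 200 and 74.9 CPM in the Foxd1 Foxc2 Twist1 cells. In all other retained cells it fell too, from 996 to 411, and in the Meox1 Tcf15 cells from 271 to 222. The part of free RNA in these values was not tested. Lefty2, a Nodal antagonist, went from 39.2 to 0.734 (-5.74, -6.81 to -4.85) and Nodal from 5.51 to no UMI, where a count of 0 allows up to 0.220. Lefty2 was as much lower in the Meox1 Tcf15 cells (-5.55) and the neighbours (-6.26). Tbx4 and Hoxa10 also went to no UMI, from 6.03 and 4.98, of which the caudal cells had held most.

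Removal of the caudal cells left the number of genes past 2-fold at 203 higher and 249 lower. It changed some posterior genes, with Hoxb6 going from -1.40 to -0.65 and Rspo3 from -1.34 to 0.57, and hardly moved Col3a1 (2.04), Has2 (-1.78), Tnnt2 (-1.86) or Lefty2 (-5.31). The other genes among the 10 largest ratios in each direction included red-cell genes (Slc4a1, Hemgn) and predicted genes such as Gm3839 (2.31 to 44.8) and Gm5611 (166 to 8.88). In the Meox1 Tcf15 cells the log2 ratios were 4.17 for Gm3839 and -4.26 for Gm5611.

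**Figure D5:**
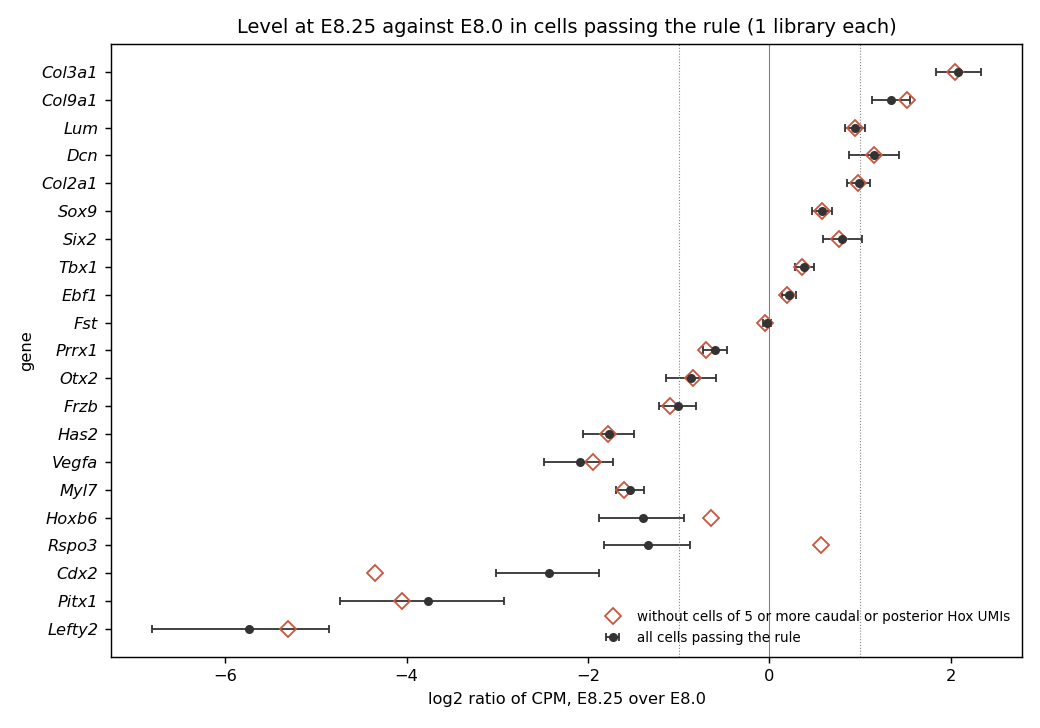
Log2 ratio of the level at E8.25 to that at E8.0 in cells passing the rule for 21 genes (black points, exact 95% intervals for counting error) and without the cells of at least 5 caudal or posterior Hox UMIs (red diamonds), with dotted lines at 2-fold. Fst and Ebf1 lie near 0, Col3a1 at 2.08 and Has2 at -1.77 with or without the caudal cells, and Rspo3 moves from -1.34 to 0.57.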

How the data were processed

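Per the labels, the authors sorted GFP-positive cells, made version 2 droplet libraries (10x Genomics, 3′ ends) and used Cell Ranger 3.1.0 with mm10. They deposited raw UMI counts per gene and cell, not normalized. Cells with under 1000 genes or over 10% mitochondrial UMIs were removed here (4, 2, 3 and 28 cells from E8.0 to E10.5). The cells and gene lists were chosen with earlier results of these data known. UMIs were summed per library and class, and levels are CPM of each sum. Sums were tested with edgeR 4.0.16 (R 4.3.3, TMM scaling, low counts filtered, quasi-likelihood test, Benjamini-Hochberg over all genes, library as a block), since both libraries hold each class. DESeq2 1.42.0 was an alternative. On simulated data for the Meox1 Tcf15 comparison (12993 genes), 79.8% of 2-fold and 95.5% of 4-fold changes were recovered with 5 false calls. There every gene had the same spread, and the classes of a library differed only by the planted changes. The simulation thus gives no error rate for the real classes, whose libraries are different stages. Red cells had a UMI of Gata1 and of another red cell marker, and at least 2% haemoglobin UMIs. Scrublet (scanpy 1.11.5) called 1.58% and 0.169% of cells at its own threshold, so the highest scores were removed at 0.8% per 1000 cells. Named genes were list genes, the 12 highest and 12 lowest called genes by log2 difference (same direction in both libraries, at least 2-fold, at least 20 CPM), the 10 largest ratios each way between stages with at least 50 UMIs and an interval beyond 2-fold, and the 15 most variable. Genes of the gates, mitochondrial, ribosomal protein and haemoglobin genes, Xist and Y-linked genes were left out of ranks, and 5 genes of the lists are counted in them but not reported here by name. Intervals are Clopper-Pearson for shares and exact Poisson for levels, and cover counting error only. Promoters came from RefSeq (GRCm38.p6). Alternatives were another filter, no block, a stricter gate, doublet removal and leaving out a library, and, chosen after seeing the data, removal of cells with haemoglobin, Tcf15, caudal or Etv2 UMIs. The cells with Tcf15 were removed from the Foxd1 Foxc2 Twist1 cells only, and the other kinds from every class.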

Additional observations from a re-analysis of the deposited data

Results flagged for a closer look

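The gene gate took cells outside the early libraries. It selected 24 of 4052 cells at E9.5 (0.592%, 0.380 to 0.880%) and 286 of 8042 at E10.5 (3.56%, 3.16 to 3.98%). At E10.5 Foxd1, which the gate reads, was at 248 CPM and Fst at 23.6, against 494 for Fst at E8.25, and Otx2 had no UMI. The dissected tissue differed from that of the early stages.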

How the results depend on the processing

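With only the library block left out, genes called fell to 4 against the Meox1 Tcf15 cells, 396 against the Isl1 Nkx2-5 cells and 10 against the neighbours (921, 2086 and 1030 with it), and the share called higher went from 53.9%, 43.7% and 41.2% to 0%, 32.3% and 30%. No low-count filter gave 1565 against the Meox1 Tcf15 cells and 1694 against the neighbours, and fitting only the 2 classes gave 1933 against the Meox1 Tcf15 cells. Against the neighbours, removal of cells with Tcf15, caudal or Etv2 UMIs gave 578, 567 and 667, where the neighbours kept their Tcf15 cells. Requiring 200 UMIs left 191 genes past 2-fold between stages, of 459. The shares passing the rule were 4.70% and 6.91% (ratio 1.47) with 2 UMIs of each gene, 21.3% and 37.1% (ratio 1.74) without the Meox1 and Cdh5 conditions, and 5.63% and 5.74% (ratio 1.02) after thinning to 10000 UMIs. Thinning to 5000 UMIs took the median Fano factor of the named genes from 3.86 to 2.38. Ndrg1 against the Meox1 Tcf15 cells turned to 0.0082 with 2 UMIs of each gene and ranged from -0.45 to 0.23 with a library left out, and was not called. The cause of these changes was not tested, except that fewer UMIs per cell lower Fano factors by construction. For the shares, thinning does not fix the direction, as the rule also asks for no UMI of Meox1 or Cdh5. Thinning can drop cells that lose a required gene and can add cells that lose their only Meox1 or Cdh5 UMI. Of 1280 tested alternative values for 128 gene and comparison pairs, 1155 kept direction and call, and 90 of the 118 calls lost were lost without the block. Leaving out a library left no residual degrees of freedom, so it gave values with no test, of which 114 of 256 moved by more than their error. Of the classes compared, depth limits the Isl1 Nkx2-5 cells at E8.25 most, where a count of 0 allows up to 1.24 CPM.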
